A study of Mus musculus with 6 samples.

Results

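The calcium buffers and plasma membrane calcium pumps of sorted mouse outer hair cells are described here as 9 genes. They were taken by symbol: the buffers Ocm, Pvalb, Calb1, Calb2 and S100a1 and the pumps Atp2b1, Atp2b2, Atp2b3 and Atp2b4. All 9 were among the 23337 gene symbols that each count file lists, and all 9 passed the filter on low counts, which left 11714 tested genes. The cells came from cochleae of mouse embryos at E18.5 and were sorted as Insm1-GFP-Cre positive outer hair cells from the organ of Corti. There were 3 Insm1-KO libraries and 3 Insm1-Het libraries. Insm1-Het is the only control, so both genotypes carry a changed Insm1 allele and no wild-type cells were compared. Cells of both genotypes were collected on the Insm1 reporter signal. The product of Insm1 is a zinc-finger transcription factor that nascent outer hair cells express for a short time. The title of the series speaks of outer hair cells becoming inner hair cells when it is missing. How many animals went into each library is not stated, so p-values measure the spread between these libraries, which may be technical.

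Calcium enters a hair cell through its mechanotransduction channels and through voltage-gated channels at its base. Mobile EF-hand proteins bind that calcium within the cytosol, and plasma membrane calcium ATPases pump it out of the cell at the cost of ATP. In the adult cochlea oncomodulin is a marker of outer hair cells, whereas calretinin and parvalbumin mark inner hair cells and spiral ganglion neurons. PMCA2, the product of Atp2b2, is the pump of the stereocilia, and its loss makes deafwaddler mice deaf.

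The KO libraries held 9259736, 7705177 and 9748629 counts, against 11738214, 10721902 and 12427039 counts in the Het libraries, so the KO libraries were all shallower. Pearson correlations of log2 CPM across genes with the other 5 libraries ran from 0.746 to 0.780 for KO replicate 3 and reached 0.834 or 0.841 for KO replicates 2 and 1. Insm1 was counted in every library, at 78.7, 60.3 and 18.7 CPM in KO and 109.3, 116.2 and 69.2 CPM in Het replicates 1 to 3. CPM are counts scaled to a common library total after TMM (trimmed mean of M values) normalization. These levels check the genotype labels only in part, because the removed stretch of the gene is not stated. Of the 5 outer hair cell markers, all 5 were counted in every library. Their summed level was 554.9 to 672.5 CPM in KO and 560.3 to 709.6 CPM in Het libraries. Strip2 alone did not overlap, at 213.3, 190.8 and 200.6 CPM in KO and 331.7, 243.9 and 270.1 CPM in Het replicates 1 to 3. Lower values in all 3 KO libraries were seen for 6.1% of all tested genes.

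The windows before the RefSeq starts (build GRCm38.p6) are shown for Ocm and S100a1, the buffers with a higher level in all 3 KO libraries, and for Pvalb, the closest relative of Ocm among the members, whose second window holds the only match to the G-rich core of the Insm1 motif. Capitals mark matches, and bases that GENCODE annotates as exon of the same gene are left out. Exons of other genes are kept. The S100a1 stretch runs into S100a13, which GENCODE starts at chr3:90514435 on the plus strand. Each is written 5′ to 3′ on the minus strand, in the order Ocm at chr5:144050610-144050859, S100a1 at chr3:90514393-90514580 and Pvalb at chr15:78204238-78204487.
Ocm: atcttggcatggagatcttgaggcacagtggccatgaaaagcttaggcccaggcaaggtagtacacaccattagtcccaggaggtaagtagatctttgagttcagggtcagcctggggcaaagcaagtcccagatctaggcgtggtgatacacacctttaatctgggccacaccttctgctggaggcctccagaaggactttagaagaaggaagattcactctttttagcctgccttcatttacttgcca
S100a1: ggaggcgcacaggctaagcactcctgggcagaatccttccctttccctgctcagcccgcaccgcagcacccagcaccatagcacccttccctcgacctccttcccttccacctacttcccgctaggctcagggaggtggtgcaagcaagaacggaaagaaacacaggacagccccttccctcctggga
Pvalb: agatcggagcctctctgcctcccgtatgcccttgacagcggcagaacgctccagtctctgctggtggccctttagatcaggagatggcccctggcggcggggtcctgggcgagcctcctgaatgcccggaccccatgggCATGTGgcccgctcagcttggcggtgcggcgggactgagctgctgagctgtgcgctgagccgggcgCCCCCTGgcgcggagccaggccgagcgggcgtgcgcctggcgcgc

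The letters searched were CANNTG, the E-box bound by basic helix-loop-helix factors such as Atoh1, and CAGGGGG, part of the G-rich sequence described for Insm1, both on either strand and with overlaps allowed. Over the 250 bases before the start, 66.2% of 32851 such windows held an E-box and 5.8% held the G-rich core. The table gave windows for Ocm, S100a1, Pvalb, Atp2b1, Atp2b2 and Atp2b4. Ocm, S100a1 and Atp2b1 had 0 matches to either motif. The window shown for Pvalb lies inside the GENCODE gene and holds 1 E-box and 1 core, and the other Pvalb window, just before the gene, holds 0 of both. Atp2b4 had 1 E-box, and the 3 windows of Atp2b2 had 1, 2 and 0. A match is only a description of these letters.

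Per length, the buffers S100a1 and Pvalb led the order of levels, and the other 3 buffers stood below the pumps Atp2b1 and Atp2b2 on average. S100a1, an EF-hand protein known from heart muscle as a partner of the ryanodine receptor and the store pump, had the highest level, at 477.7 ± 144.7 CPM per kb in KO and 296.5 ± 57.4 CPM per kb in Het libraries (SD, n = 3 each). Lengths are those of the longest GENCODE transcript. Pvalb, parvalbumin, followed with 207.6 ± 45.9 CPM per kb in KO and 194.4 ± 17.9 CPM per kb in Het libraries. Atp2b1, which encodes PMCA1, the broadly expressed pump, was the third, at 160.9 ± 0.832 CPM per kb in KO and 162.2 ± 22 CPM per kb in Het libraries. Within each of the 6 libraries S100a1 stood above Pvalb and Pvalb above Atp2b1.

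Atp2b2 and Calb1, the gene of calbindin D28k, came next and could not be ordered. Their means over the 6 libraries were 55.5 and 49.5 CPM per kb, and Atp2b2 was the higher one in 4 of 6 libraries. Atp2b3, which encodes PMCA3, a pump best known from the nervous system, stood below them at 24.2 CPM per kb. Calb2, calretinin, and Atp2b4, which encodes PMCA4, had 10.3 and 10.1 CPM per kb and could not be ordered either, since Calb2 was the higher one in 3 of 6 libraries. Ocm was last, with 4.13 ± 1.59 CPM per kb in KO libraries and 0 counts in Het libraries.

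**Figure D1:**
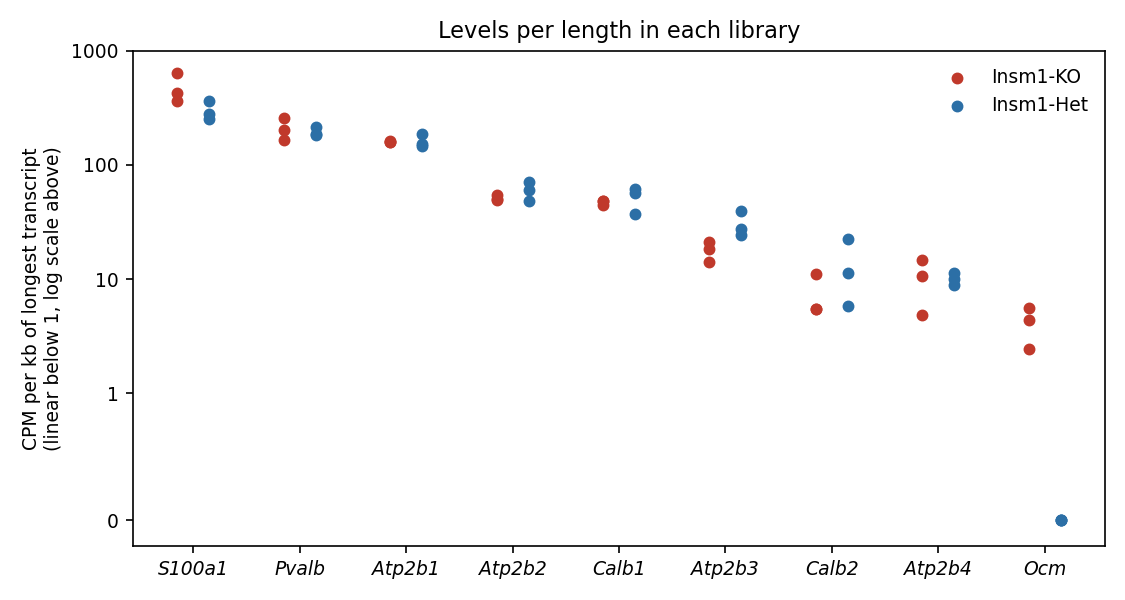
Level of each of the 9 genes in CPM per kb of its longest transcript (y axis, linear below 1 and logarithmic above), with 1 point per library in KO (red) and Het (blue). S100a1 leads and Ocm is lowest, and the points of neighbouring genes such as Atp2b2 and Calb1 intermingle.

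None of the 9 genes passed the test between the genotypes. In edgeR (quasi-likelihood F test, Benjamini-Hochberg adjustment over all tested genes), 0 of 9 had an adjusted p under 0.05, and the same held for 0% of the 11714 genes. At an unadjusted p under 0.05 there were 3 of 9, namely Ocm, S100a1 and Atp2b3, against 5.34% of all genes. DESeq2 and limma-voom also called 0 of 9 after adjustment and had 3 and 2 members at an unadjusted p under 0.05. Over all genes DESeq2 passed 26 and limma-voom 0. For Ocm and S100a1 every KO value exceeded every Het value, a pattern that 5.08% of all tested genes had. For Atp2b3 every KO value was below every Het value, which held for 6.1% of all tested genes. Ocm passed the filter only through its KO counts, so it adds nothing to these comparisons with all genes. Reads of fewer expressing cells and of less RNA per cell cannot be told apart in such bulk libraries.

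**Figure D2:**
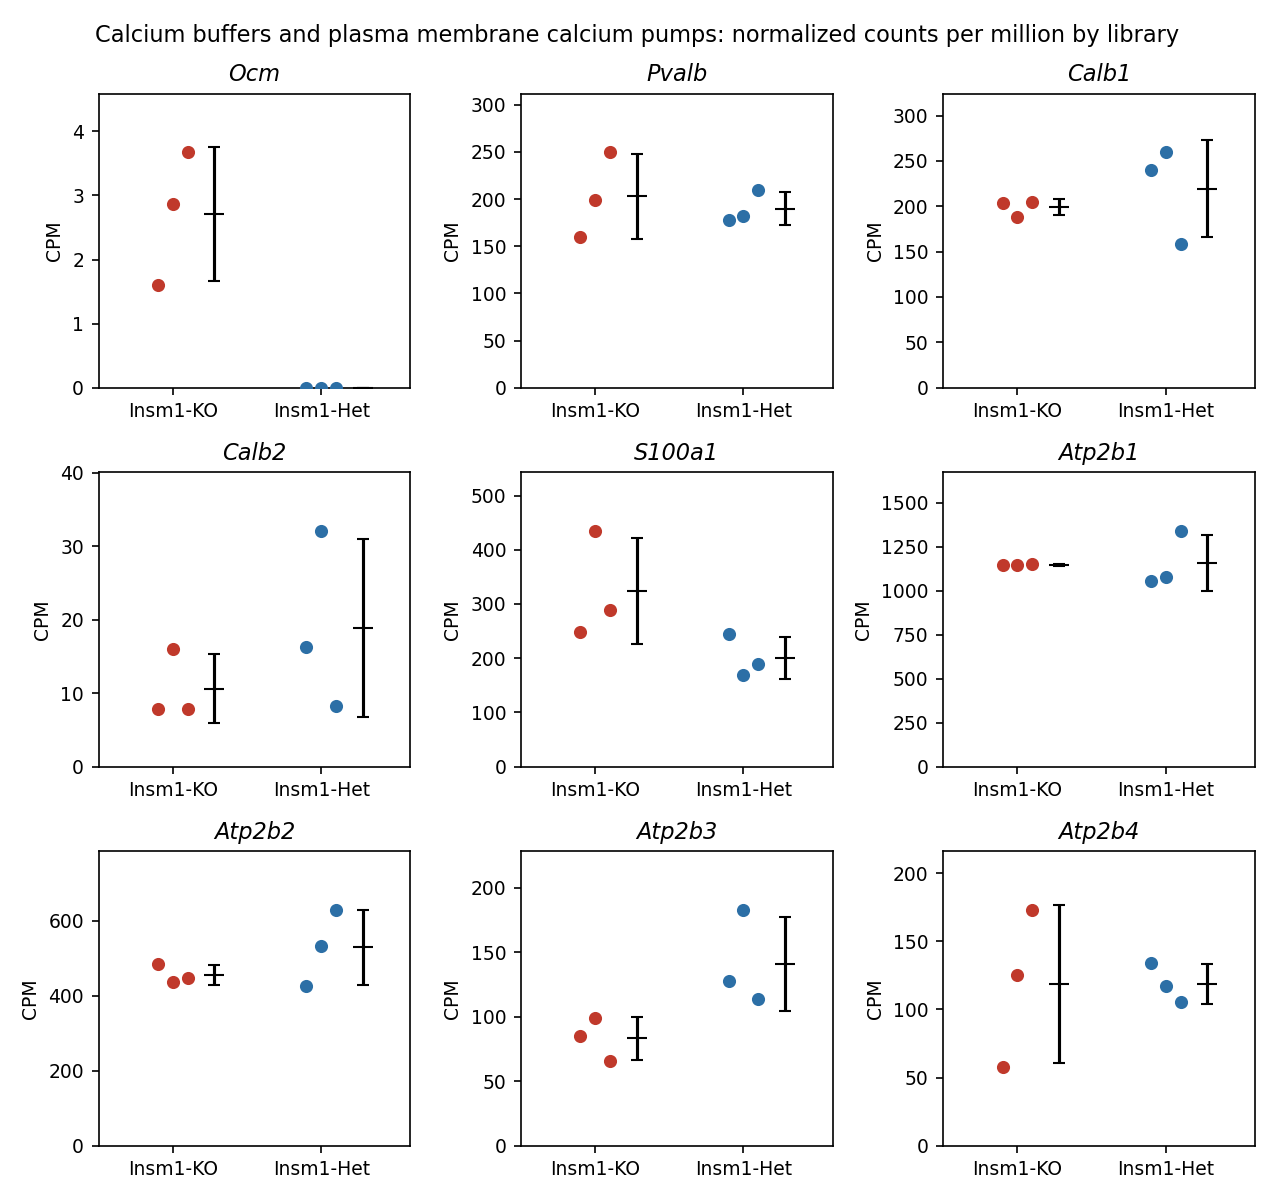
Normalized CPM of each gene (y axis, starting at 0, a separate scale per panel) in the 3 KO (red, left) and 3 Het (blue, right) libraries, in order of replicate number, with mean and SD in black. The genotypes do not overlap in Ocm, S100a1 and Atp2b3 and overlap in the other 6 genes.

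Ocm encodes oncomodulin, a small parvalbumin-like buffer that outer hair cells are known to express after birth. Its gene lies on the minus strand of chromosome 5, from 144019804 to 144026670 in GENCODE on GRCm38. The RefSeq start used for its window, at chr5:144050610-144050859, lies outside that span, upstream of it. The bases just before the GENCODE start were therefore not searched for motifs. Raw counts of Ocm were 15, 22 and 33 in KO replicates 1, 2 and 3, and 0, 0 and 0 in the Het libraries. All 70 reads thus came from KO libraries, although these were the shallower ones. The KO level was 1.6, 2.87 and 3.67 CPM. Against a floor of 3 counts over the Het group, or 0.0842 CPM, the KO mean was 32.2-fold higher and the lowest KO library 19.0-fold. The floor covers counting error alone, because reads from amplified cDNA are not independent molecules.

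Ocm remained a minor transcript in KO cells, where Pvalb had 75.2 counts for each count of Ocm. It passed the filter only through the KO libraries, so it had to differ between the genotypes once it was tested. Its adjusted p was 0.92 in edgeR. Of the 1318 tested genes with a mean of 5 to 50 counts, 59.1% had 0 counts in at least 1 library and 6.15% in 3 libraries, as Ocm did. A count of 0 in every Het and at least 15 in every KO library, a limit set after the counts of Ocm were seen, was met by 2 genes, Ocm and E130018N17Rik, or 0.0171% of those tested. The mirrored pattern, 0 counts in every KO and at least 15 in every Het library, was met by 9 genes, or 0.0768%.

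The tested inner hair cell markers, Brip1 and Tbx2, had higher values in all KO libraries than in the Het libraries. That pattern held for 5.08% of all tested genes. Neither marker would have passed the filter on low counts without its KO counts, so they add nothing to a comparison with all genes. Brip1 had 719, 675 and 3788 counts in KO replicates 1 to 3 and 6, 0 and 75 counts in Het replicates 1 to 3 (adjusted p = 0.415 in edgeR). It did not pass there, but passed with the replicate block, with no filter and in the newer edgeR fit. The summed level of the 4 listed inner hair cell markers was 92.0 to 431.2 CPM in KO and 0.0937 to 7.75 CPM in Het libraries, and 3 of the 4, all but Tbx2, were at 0 in some library. Brip1 made up most of this sum in every KO library, with 421.5 CPM in KO replicate 3. Slc17a8, the glutamate transporter VGLUT3, had 18, 0 and 0 counts in KO and 6, 0 and 15 counts in Het replicates 1 to 3. Fgf8, which was not tested either, had 87, 0 and 42 counts in KO and 0, 0 and 0 counts in Het replicates 1 to 3. The part of inner hair cell markers in the Ocm counts was not tested.

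S100a1 (chr3:90511034-90514392, minus strand) had 247.5, 433.9 and 288.8 CPM in KO replicates 1, 2 and 3, against 244.2, 169.5 and 188.5 CPM in Het replicates 1, 2 and 3. KO replicate 1 and Het replicate 1 were nearly equal, and KO replicate 2 was the highest. The means were 323.4 ± 97.9 CPM in KO and 200.7 ± 38.8 CPM in Het libraries (SD, n = 3 each), a log2 fold change of 0.69 (SE 0.28, 95% interval 0.10 to 1.28). This did not pass, with an adjusted p of 0.92 by edgeR's quasi-likelihood test. An exact two-sided permutation test of the CPM gave p = 0.1, the smallest value that 3 against 3 libraries allow. Without KO replicate 2 the log2 fold change was 0.43, over 1.5 times smaller. With scaling by library size alone the genotypes overlapped, with 250.3 to 431.8 CPM in KO and 168.8 to 255.5 CPM in Het libraries.

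The summed markers of supporting cells, which hair cell sorts can carry over, overlapped between the genotypes. The 8 genes summed to 1004 to 1238 CPM in KO and 891 to 1122 CPM in Het libraries, with Matn4 at 0 counts in some libraries of each genotype. Prox1, Fgfr3 and Sox2 made up most of this sum in every library. How much of the sum came from supporting cells was not tested. Of the 8, Sparcl1 alone did not overlap, with 40, 8 and 24 counts in KO and 63, 46 and 670 counts in Het replicates 1 to 3. KO replicate 1 and Het replicate 2 were nearly equal, at 4.27 and 4.31 CPM. All 3 KO values below all 3 Het values were seen for 6.1% of all tested genes.

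Pvalb (chr15:78191114-78206400, minus strand) had 160.2, 198.8 and 249.6 CPM in KO replicates 1, 2 and 3, against 177.9, 181.9 and 209.9 CPM in Het replicates 1, 2 and 3. The KO values enclosed the Het values on both sides. The log2 fold change was 0.10 (95% interval -0.48 to 0.67). It turned to -0.073 without KO replicate 3.

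Calb1 (chr4:15881264-15908064, plus strand) had 203.7, 188.6 and 204.3 CPM in KO replicates 1, 2 and 3, against 240.3, 259.4 and 158.6 CPM in Het replicates 1, 2 and 3. Here the KO libraries lay close together and within the range of the Het libraries. The log2 fold change was -0.14 (interval -0.72 to 0.44). It was -0.0052 without Het replicate 2 and -0.32 without Het replicate 3.

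Calb2 (chr8:110137502-110168210, minus strand) was the least abundant buffer after Ocm, at 7.90, 16 and 7.90 CPM in KO replicates 1, 2 and 3 and 16.3, 32.0 and 8.30 CPM in Het replicates 1, 2 and 3. The genotypes overlapped, and Het replicate 2 was the highest. The log2 fold change was -0.83 (interval -2.66 to 1.0). Without Het replicate 2 it was -0.21. Calretinin is also made by spiral ganglion neurons, whose 10 listed markers summed to 977.4 to 1620 CPM in KO and 1007 to 1155 CPM in Het libraries. Nefm and Nefl made up most of this sum in every library, with Nefm at 979.8 CPM in KO replicate 2. Of the 10 markers, 5 were at 0 in some library, among them the neuronal tubulin Tubb3 with 0, 26 and 0 counts in KO replicates 1 to 3 and 6, 21 and 0 counts in Het replicates 1 to 3. Rbfox3 alone did not overlap, at 45.1, 43.6 and 83.6 CPM in KO and 35.1, 29.2 and 7.03 CPM in Het replicates 1 to 3. Higher values in all 3 KO libraries were seen for 5.08% of all tested genes. The part of neurons in the Calb2 counts was not tested.

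**Figure D3:**
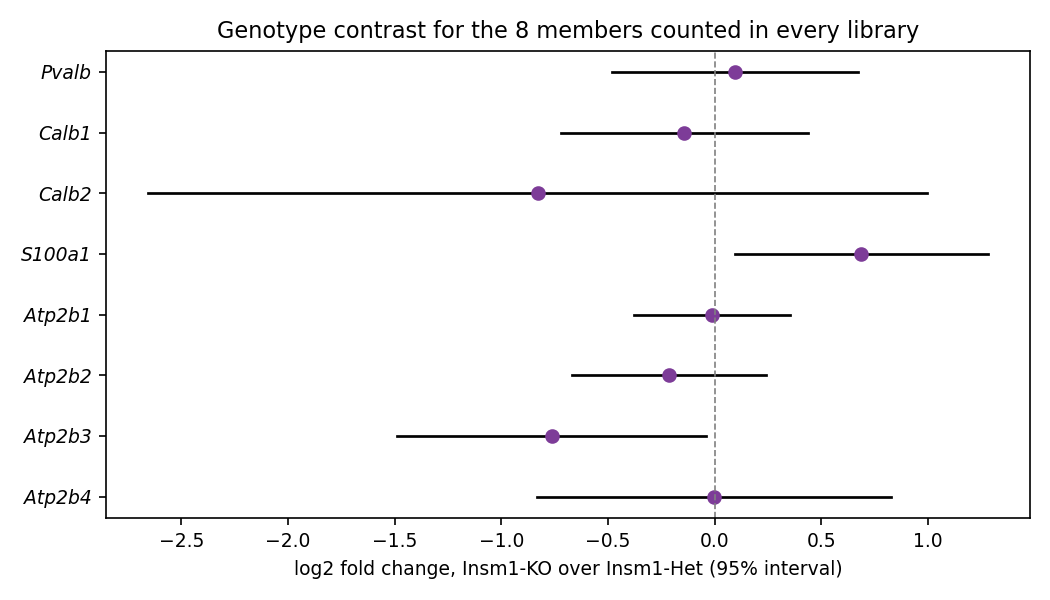
Log2 fold change of KO over Het (x axis) with its 95% interval for the 8 genes counted in every library (y axis), from edgeR's quasi-likelihood fit. The intervals of S100a1 and Atp2b3 lie on 1 side of 0 before adjustment over all genes, and that of Calb2 is the widest.

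Among the pumps, Atp2b1 was the most even gene. It lies at chr10:98914406-99026143 on the plus strand. It had 1144, 1144 and 1154 CPM in KO replicates 1, 2 and 3, against 1053, 1080 and 1337 CPM in Het replicates 1, 2 and 3. The Het libraries enclosed the narrow KO range. The log2 fold change was -0.01 (95% interval -0.38 to 0.35). In folds this interval spans 0.770 to 1.28 times the Het level. Its spread within a genotype, as a coefficient of variation, was 9.65%, against a median of 15.9% over the 199 tested genes within 2-fold of its level.

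Atp2b2, the stereocilia pump (chr6:113743831-114042613, minus strand), had 486.0, 436.3 and 446.5 CPM in KO replicates 1, 2 and 3, against 427.4, 532.9 and 627.9 CPM in Het replicates 1, 2 and 3. The genotypes overlapped, with Het replicate 1 the lowest and Het replicate 3 the highest library. The log2 fold change was -0.21 (interval -0.67 to 0.24). It was -0.063 without Het replicate 3 and -0.35 without Het replicate 1.

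Atp2b3 had 85.1, 98.9 and 65.7 CPM in KO replicates 1, 2 and 3, against 127.8, 182.5 and 113.4 CPM in Het replicates 1, 2 and 3. All KO libraries lay below all Het libraries, also with scaling by library size or by median ratios. The means were 83.2 ± 16.7 CPM in KO and 141.2 ± 36.5 CPM in Het libraries (SD, n = 3 each), a log2 fold change of -0.76 (SE 0.34, 95% interval -1.49 to -0.04). This did not pass, with an adjusted p of 0.92 by edgeR's quasi-likelihood test, and the exact two-sided permutation test gave p = 0.1, its smallest value. Without Het replicate 2 the log2 fold change was -0.54.

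The gene of Atp2b3 lies on the X chromosome, from 73503086 to 73571005 on the plus strand (GRCm38). A Y-linked gene was lower in every KO library, whereas Xist overlapped between the genotypes. The Y-linked Ddx3y had 39, 38 and 23 counts in KO and 501, 186 and 216 counts in Het replicates 1 to 3, and Xist, the RNA of the inactive X chromosome, had 469.1, 758.2 and 622.1 CPM in KO and 228.3, 458.5 and 534.6 CPM in Het replicates 1 to 3. Their part in the Atp2b3 values was not tested.

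Atp2b4 (chr1:133699457-133801041, minus strand) had 57.4, 125.6 and 172.7 CPM in KO replicates 1, 2 and 3, against 133.9, 117.1 and 105.2 CPM in Het replicates 1, 2 and 3. KO replicate 1 was the lowest library and KO replicate 3 the highest, with the Het libraries between them. The log2 fold change was -0.0017 (interval -0.83 to 0.83) and ran from -0.37 without KO replicate 3 to 0.33 without KO replicate 1. The exons of Atp2b4 overlap the small RNA gene Mir6903 in GENCODE. For the other 8 genes no overlap with exons of another gene was found.

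As shares of the summed pump level per kb, Atp2b1 made up 66.9% ± 0.474 in KO and 61.8% ± 3.26 in Het libraries (SD, n = 3 each). Its share was 67.3%, 66.4% and 67.2% in KO replicates 1 to 3 and 62.9%, 58.1% and 64.3% in Het replicates 1 to 3, so the genotypes did not overlap in these libraries, a difference that was not tested. Atp2b2 held 21.4% ± 1.39 in KO and 22.6% ± 1.90 in Het libraries, with overlap. Atp2b3 held 7.46% ± 1.49 in KO and 11.7% ± 3.35 in Het libraries, and here KO replicate 2 at 8.82% lay above Het replicate 3 at 8.38%. Atp2b4 held 4.2% ± 2.04 in KO and 3.92% ± 0.898 in Het libraries. These shares depend on the transcript lengths. With the union of all exons as length, the share of Atp2b1 was 54.4% in KO and 48.4% in Het libraries. The summed pump level was 238.4, 241.7 and 241.1 CPM per kb in KO and 234.7, 260.9 and 291.7 CPM per kb in Het replicates 1 to 3, with overlap. Gene counts do not separate the splice forms of the pumps.

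**Figure D4:**
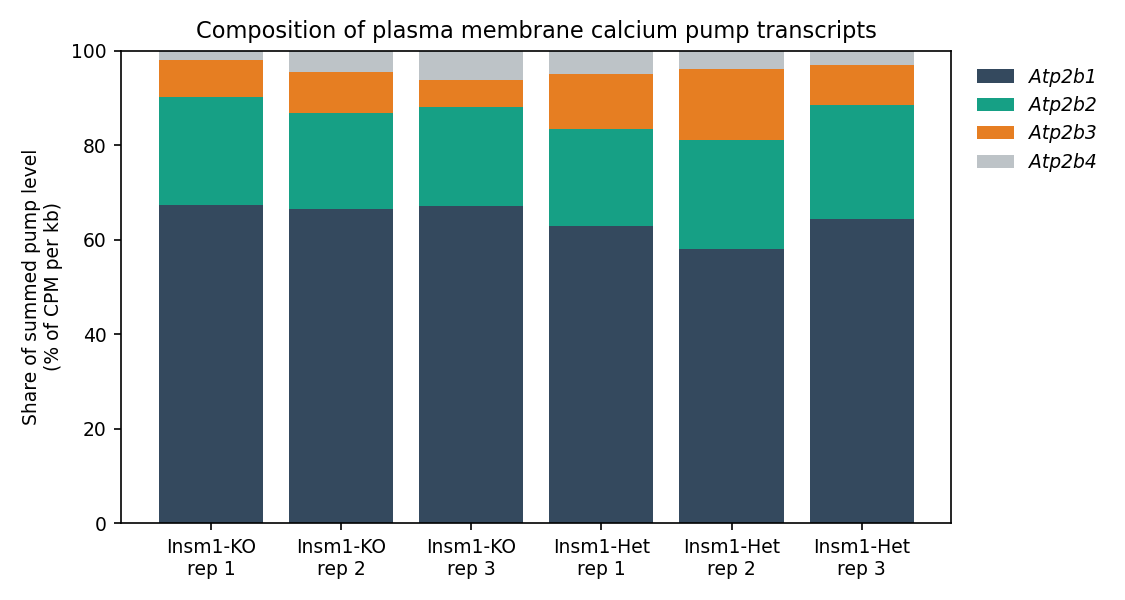
Share of each pump gene in the summed level of the 4 pumps (y axis, % of CPM per kb of the longest transcript) in each library (x axis, KO left of Het). Atp2b1 takes 58.1% to 67.3% in every library, and the Atp2b3 band is widest in Het replicate 2.

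The buffers summed to 585.7, 904.7 and 741.5 CPM per kb in KO and 611.1, 520.4 and 536.7 CPM per kb in Het replicates 1 to 3. KO replicate 1 lay below Het replicate 1, so the genotypes overlapped. S100a1 supplied 63.6% ± 6.74 of the sum in KO and 53.0% ± 5.54 in Het libraries, and Pvalb 28.3% ± 5.99 in KO and 35.2% ± 5.15 in Het libraries (SD, n = 3 each). Ocm supplied 0.416%, 0.482% and 0.753% in KO replicates 1 to 3.

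Genes outside the members with the most similar pattern over the 6 libraries were looked for among 8949 tested genes at 10 CPM or more, by the root-mean-square difference of centred log2 CPM. For S100a1, the most abundant buffer, they were Cox7b (0.092), Samd4b (0.134) and Ngly1 (0.144). For Atp2b1, the most abundant pump, they were Man2a2 (0.065), Hspa4 (0.068) and Zfhx3 (0.068).

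The other genes of calcium handling were read from 5 lists: partners of the pumps, other EF-hand proteins, exchangers and store pumps, release and entry with lumenal buffers, and mitochondrial uptake. In edgeR 0 genes of these lists passed over all genes, and DESeq2 and limma-voom also called 0. At an unadjusted p under 0.05 the lists held 0 of 4, 0 of 17, 1 of 8, 2 of 17 and 0 of 9 tested genes. Over all tested genes the share was 5.34%. The 1 of 8 was Slc8a3, named after its values were seen. It passed the filter only through its KO counts, so it adds nothing to this comparison. Median log2 fold changes of the lists were -0.32, 0.24, 0.02, 0.17 and -0.17, beside 0.02 over all tested genes, 0.10 over the 5 buffers and -0.11 over the 4 pumps. The median of the buffers was also 0.10 with Ocm at its bound from the floor.

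Basigin, Bsg, an obligatory subunit of the pumps, had 344.6 ± 44.4 CPM in KO and 361.7 ± 33.1 CPM in Het libraries (SD, n = 3 each), with a log2 fold change of -0.07 (interval -0.54 to 0.40). Pdzd11, a protein that binds the tail of PMCA pumps, had 26.5 ± 4.16 CPM in KO and 45.4 ± 17.3 CPM in Het libraries, with overlap. The other subunit, neuroplastin (Nptn), named after its values were seen, had 46.2, 49.2 and 251.9 CPM in KO replicates 1 to 3 and 54.2, 72.7 and 58.6 CPM in Het replicates 1 to 3, so KO replicate 3 alone was high.

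Calm2, an EF-hand gene of calmodulin, had 1149 ± 173.5 CPM in KO and 1161 ± 49.6 CPM in Het libraries (SD, n = 3 each). Atp2a2, the store pump SERCA2, had 685.8 ± 65.3 CPM in KO and 668.8 ± 68.2 CPM in Het libraries, and Slc8a1, the sodium-calcium exchanger NCX1, had 1439 ± 176.0 CPM in KO and 1440 ± 210.4 CPM in Het libraries. In the store, Rcn1, reticulocalbin, had 605.1 ± 168.7 CPM in KO and 685.4 ± 13.6 CPM in Het libraries, and Calr, calreticulin, had 540.3 ± 80.8 CPM in KO and 481.9 ± 52.2 CPM in Het libraries. The outer membrane channels of mitochondria Vdac2 and Vdac1 had 212.1 ± 77.0 and 161.9 ± 49.8 CPM in KO, against 208.5 ± 54.2 and 182.4 ± 44.5 CPM in Het libraries (SD, n = 3 each). None of these genes passed.

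**Figure D5:**
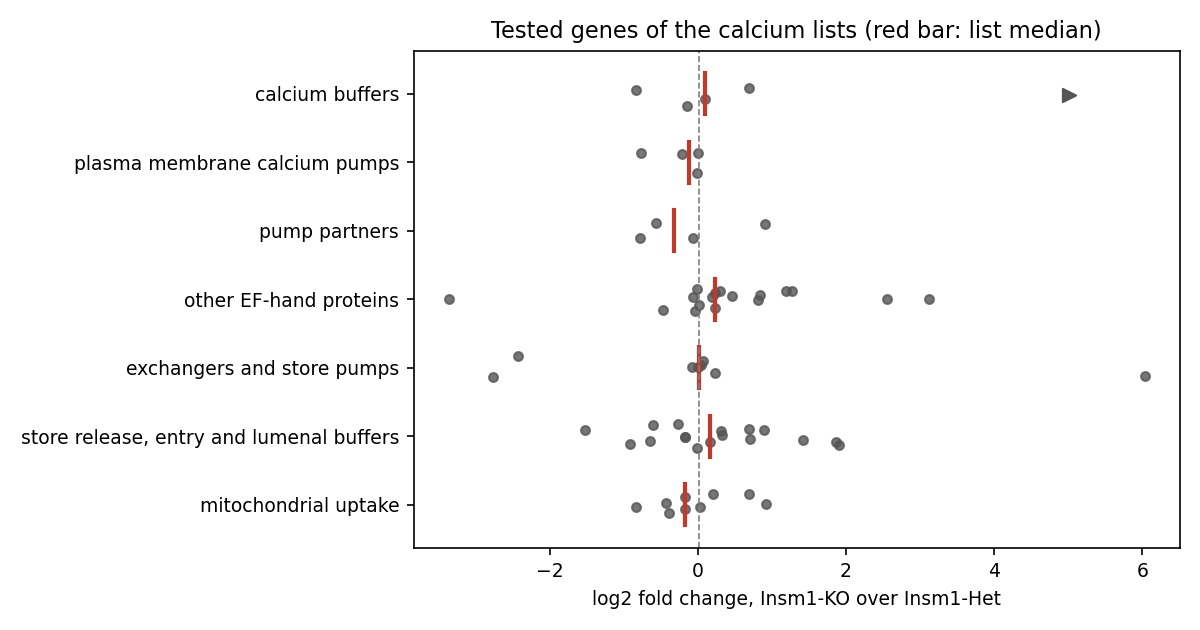
Log2 fold change of KO over Het (x axis) for each tested gene of the buffers, the pumps and 5 further calcium lists (y axis, points spread vertically for clarity). The red bar is the list median and the dashed line the median of all tested genes (0.02). Ocm is drawn as a triangle at its bound from the counting floor, 5.01, which leaves out the spread between libraries.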

How the data were processed

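RNA depleted of ribosomal RNA was sequenced from 6 libraries, 3 Insm1-KO and 3 Insm1-Het. The authors deposited raw counts per gene symbol, 1 file per library. Trimmomatic, STAR and HTSeq with GRCm38 (mm10) are named in the submitters' processing notes; their versions, the annotation, the strand setting and the handling of multi-mapped reads are not given there. Blank or summary lines numbered 0.

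Genes were kept by filterByExpr (minimum count 10, minimum total 15) and scaled by TMM. Genotypes were compared over all genes with edgeR 4.0.16 (quasi-likelihood F test, genotype as the only term, Benjamini-Hochberg adjustment, threshold 0.05). The standard error is the log2 fold change divided by the square root of F. The code was tested on simulated data. Single values were also compared by exact permutation. Alternatives used DESeq2 1.42.0, limma 3.58.1, other scalings, no filter, a replicate block and leaving out each library.

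Lengths and overlaps came from GENCODE M21 (GRCm38), promoter sequences from RefSeq. Every listed symbol but Hbb-bt was found, some under an older name. Members and lists were chosen with earlier results of these data known. Named were all members, the 2 most abundant genes per kb of each calcium list, the most abundant gene of each marker list with any at 0 everywhere, and the genes of closest pattern; 1 gene this rule names is not reported here.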

Additional observations from a re-analysis of the deposited data

How the results depend on the processing

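In each of the 13 alternatives 0 of the 9 members passed after adjustment. Of 117 member values under these alternatives, 107 kept their direction. The 10 that turned belonged to Atp2b1, Atp2b4 and Pvalb, whose log2 fold changes lie near 0 and did not pass on either side. Atp2b1 was 0.00086 with median-ratio scaling and 0.00085 with DESeq2, and ran from -0.077 to 0.12 with 1 library left out. Atp2b4 was 0.015 with median-ratio scaling and with DESeq2 and 0.0020 with no filter, and ran from -0.37 to 0.33 with 1 library left out. Pvalb ran from -0.073 to 0.24 with 1 library left out. Over all genes, where edgeR passed 0, the count was 67 with no filter, 26 with DESeq2, 1 in the newer form of the fit and 1 with the replicate block, in both cases Brip1, which passed with no filter too; the causes were not tested. The scalings moved the median log2 fold change of all genes to between -0.05 and 0.03, so by less than 0.1. With the union of exons as length, the mean share of Atp2b1 among the pumps over the 6 libraries was 51.4%, against 64.3% with the longest transcript, since the union is longer for this gene (15218 against 7130 bases); Atp2b2 and Calb1 and likewise Calb2 and Atp2b4 then changed places.

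With the replicate number as a block, 0 of 9 members passed, and the log2 fold change was 0.66 for S100a1 and -0.75 for Atp2b3. The numbers are not shown to pair the libraries: same-numbered KO and Het libraries had correlations of their deviations from the genotype means of 0.010, 0.0073 and 0.014, and KO replicate 2 correlated best with Het replicate 1.

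Depth limits Calb2 and Ocm most, at 71 to 123 and 15 to 33 counts in KO libraries. The fitted fold of Ocm depends on the prior count, and its bound from the floor is used instead.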

Other observations

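Outside the buffers and plasma membrane pumps, some further calcium genes did not overlap between the genotypes, and those named were picked after their values were seen. In the 5 lists, in the order given above, 0, 2, 1, 1 and 0 tested genes were higher in all 3 KO libraries. Lower in all 3 were 0, 1, 2, 1 and 1 genes, of 4, 17, 8, 17 and 9 tested. Over all tested genes the shares were 5.08% higher and 6.1% lower. Slc8a3, the sodium-calcium exchanger NCX3, had 67, 47 and 45 counts in KO and 0, 0 and 3 counts in Het replicates 1 to 3, while Slc8a1 and Slc8a2 overlapped. Orai1, the pore of store-operated calcium entry, had 22.7 ± 6.03 CPM in KO and 6.04 ± 3.27 CPM in Het libraries (SD, n = 3 each), a log2 fold change of 1.90 (SE 0.85). S100a6, an EF-hand protein of the S100 family, had 65, 81 and 43 counts in KO and 17, 3 and 11 counts in Het replicates 1 to 3. Lower in all 3 KO libraries were Calu, the lumenal calcium binder calumenin, at 150.7 ± 28 CPM in KO and 229.5 ± 10.7 CPM in Het libraries, with a log2 fold change of -0.61 (SE 0.26), and Ncs1, neuronal calcium sensor 1, with 23, 0 and 0 counts in KO and 152, 49 and 112 counts in Het replicates 1 to 3. Slc24a5, Slc8b1 and Letm1 were also lower in all 3 KO libraries. None passed over all genes by edgeR's quasi-likelihood test, where the adjusted p ran from 0.92 to 0.979. Slc8a3, S100a6, Ncs1, Slc24a5 and Slc8b1 would not have passed the filter on low counts without the genotype where they were higher. They therefore add nothing to the comparison with the shares over all tested genes.

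The marker lists gave these values for their most abundant genes. Strip2 of the outer hair cell list had 201.6 ± 11.3 CPM in KO and 281.9 ± 45.1 CPM in Het libraries, and Myo6 of the general hair cell list 4990 ± 166.9 CPM in KO and 5077 ± 182.6 CPM in Het libraries (SD, n = 3 each). Of the 7 general hair cell genes, Atoh1 was higher and Gfi1 lower in all 3 KO libraries. Over all tested genes these patterns held for 5.08% and 6.1%. Nefm, a neurofilament on the ganglion list, had 662.9 ± 274.5 CPM in KO and 532.1 ± 84.6 CPM in Het libraries, and Prox1 of supporting cells 600.4 ± 126.2 CPM in KO and 453.5 ± 73.3 CPM in Het libraries. Cnp of glia had 132.1 ± 16 CPM in KO and 120.2 ± 32.1 CPM in Het libraries. Pdgfra of mesenchyme had 260.6 ± 80.2 CPM in KO and 285.5 ± 62.0 CPM in Het libraries. Laptm5, which stands for blood cells, had 71.5 ± 55.9 CPM in KO and 104.7 ± 18.1 CPM in Het libraries. Ptprc of the same list had 1, 0 and 0 counts in KO and 14, 0 and 0 counts in Het replicates 1 to 3. Twist1 of mesenchyme and the haemoglobin genes Hba-a1 and Hba-a2 had 0 counts in all 6 libraries. The summed glial list was at 175.0 to 204.6 CPM in KO and 131.8 to 270.2 CPM in Het libraries, mesenchyme at 183.7 to 334.9 CPM in KO and 227.4 to 363.3 CPM in Het libraries, and blood at 43.8 to 138.7 CPM in KO and 87.4 to 121.4 CPM in Het libraries. Pdgfra made up most of the mesenchyme sum and Laptm5 most of the blood sum in every library. Of 6 genes found in each of these 2 lists, 4 and 5 were at 0 in some library.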
